A study of Homo sapiens with 20 samples.

Results

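The G2/M and mitosis genes are 44 genes whose products carry cells from G2 through mitosis and cytokinesis. They were chosen by name, from a fixed list of symbols, and kept where 4 or more of the 20 libraries reached 0.1 FPKM (fragments per kilobase of transcript, scaled to the fragments of the library). All 44 were found on 1 line each and all 44 passed that filter, out of 58825 genes in the table and 20094 genes that passed it. The RNAseq study asked how extracellular ATP (eATP) changes gene expression in lung cancer cells beside TGF-β, a cytokine that induces the epithelial mesenchymal transition. All libraries came from A549, an established human non-small cell lung cancer line bought from ATCC and grown in serum-containing medium. Each of the 5 conditions had 4 libraries: untreated control cells, cells given 0.5 mM ATP for 2 h (eATP 2 h) or 6 h (eATP 6 h), and cells given 10 ng/ml TGF-β for 2 h (TGF-β 2 h) or 6 h (TGF-β 6 h). The labels and the table number 4 libraries in each condition, whereas the methods of the study speak of fewer replicates, and this difference was not resolved. The controls carry no collection time, so the same 4 control libraries served both times and both inducers. The part of handling and of time in culture in the differences from these untreated controls was not tested. No source used here says whether libraries of a condition came from separate cultures, so the spread behind the p-values is that of libraries and may be technical in origin.

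The RNA of these genes is made late in the cell cycle. Cyclin B and the kinase CDK1 drive entry into mitosis, the kinases of the PLK, Aurora and BUB families order its steps, and the anaphase-promoting complex with CDC20 ends it. Most of these genes are known to be switched off in G1 by the DREAM complex and switched on in G2 by the MuvB core with MYBL2 and FOXM1, which act through a promoter element called the cell cycle gene homology region (CHR). TGF-β is known for halting epithelial cells in G1.

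Promoters of the members were looked up in the RefSeq promoter table (build GRCh38.p14, 250 bases before to 50 bases after each start). A total of 37 of the 44 genes were matched, with 47 windows since some genes have more than 1 start. AURKA, BIRC5, CDCA2, FOXM1, TPX2, TTK and UBE2C were not matched. The CHR was searched as TTTGAA, with its variant form TTCGAA, and the element that binds NF-Y as CCAAT, both on either strand, and a match of letters is a description only. The CHR letters stood in 31 of the 47 member windows (66%), beside 16.4% of all 35116 windows of the table and 6.67% of 45 windows of G1/S and replication genes. CCAAT stood in 74.5% of the member windows, 34.6% of all windows and 64.4% of the G1/S windows. Both stood in 55.3% of member windows and 6.38% of all windows. Within the last 100 bases before the start, a span chosen after the positions were seen, the CHR letters stood in 34% of member windows and 4.92% of all windows. The 100 bases before the start are printed for CCNB2 and PLK1, which show the pairing of CCAAT and a CHR close to the start. They are also printed for CDCA8, GTSE1 and BUB1B, which had some of the largest falls after eATP, and for HJURP, whose fall after TGF-β was the largest among the 44 genes. Capitals mark the CHR letters, which read TTCAAA where the element lies on the other strand, and CCAAT, which then reads ATTGG.
CCNB2: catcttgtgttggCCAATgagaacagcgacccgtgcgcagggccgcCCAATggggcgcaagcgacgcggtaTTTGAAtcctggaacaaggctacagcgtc
PLK1: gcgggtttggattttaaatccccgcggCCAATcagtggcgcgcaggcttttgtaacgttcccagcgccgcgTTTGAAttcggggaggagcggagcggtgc
CDCA8: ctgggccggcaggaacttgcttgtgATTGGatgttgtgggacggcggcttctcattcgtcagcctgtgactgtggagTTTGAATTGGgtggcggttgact
BUB1B: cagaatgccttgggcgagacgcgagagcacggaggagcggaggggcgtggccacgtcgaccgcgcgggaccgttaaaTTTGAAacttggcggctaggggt
GTSE1: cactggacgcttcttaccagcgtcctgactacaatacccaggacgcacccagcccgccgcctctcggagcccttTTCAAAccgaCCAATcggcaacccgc
HJURP: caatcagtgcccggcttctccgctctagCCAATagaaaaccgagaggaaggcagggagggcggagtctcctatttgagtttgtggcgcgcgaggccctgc
The CCNB2 stretch is chr15:59105046-59105145 and the PLK1 stretch chr16:23678789-23678888, both on the plus strand with the CHR letters beginning at position -29 from the start. The CDCA8 stretch is chr1:37692416-37692515 on the plus strand, with the CHR at -23, where its last base is shared with an ATTGG. The BUB1B stretch, chr15:40160969-40161068 on the plus strand, has the CHR at -23 and no CCAAT in these 100 bases. The GTSE1 stretch, chr22:46296770-46296869 on the plus strand, has the reversed CHR at -26. The HJURP stretch is chr2:233854536-233854635 on the minus strand, with a CCAAT at -72 and no CHR letters in these 100 bases.

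The libraries held 56187614 to 75050437 counts each. As a check of the label, the keratins KRT8 and KRT18 of epithelial cells were at 329 to 607 and 659 to 1245 FPKM, and EPCAM and CDH1 were at 4.48 to 6.99 and 2.14 to 15.3 FPKM. Among markers of leukocytes, endothelium and fibroblasts, PTPRC, CD3E, PECAM1, VWF, COL1A2 and DCN were below the filter, while CD68 (1.79 to 6.22 FPKM), COL1A1 (0.566 to 17.8), CDH5 (up to 0.503) and PDGFRA (up to 0.145) passed it. These markers moved with the treatments. COL1A1 and PDGFRA were both called higher after TGF-β, with the lower log2(FC) of the pair at 1.18 and the higher at 2.55 at 2 h, and at 1.49 and 4.04 at 6 h, and 1 of them was higher (1.15) at 2 h and 1 lower (-0.68) at 6 h of eATP. CDH5 was higher at 2 h of eATP (1.37), and CD68 was lower at 6 h of TGF-β (-0.95). PDGFRA held 20 to 118 counts over the libraries, near the filter, so its calls rest on low values. The part of these markers in the results was not tested. The alveolar type 2 markers SFTPC, SFTPB and NKX2-1 were also below the filter. The TGF-β 2 h replicate 1 stood apart: its deviations from its group had an SD of 0.613 over genes, where the other 19 libraries had SDs of 0.309 to 0.423. Its deviations fell with transcript length (r = -0.385 across 11553 genes and r = -0.586 across the 44 members, and genes are not independent replicates). A weaker trend of the same sign was present in control replicate 3 (r = -0.268 across genes and -0.537 across members), eATP 6 h replicate 3 (-0.194 and -0.524) and TGF-β 6 h replicate 3 (-0.202 and -0.423). Other libraries had trends of the opposite sign, the largest in TGF-β 2 h replicate 3 (0.276 and 0.498). Across members, r was also 0.467 and 0.485 in control replicates 1 and 4. It was 0.462 in eATP 6 h replicate 4 and 0.476 in TGF-β 6 h replicate 4. Control replicate 3 enters each comparison with the controls, and when it was left out 17 members in place of 20 were called lower at 2 h of eATP, 26 as before at 2 h of TGF-β and 6 in place of 7 at 6 h of TGF-β. The part of transcript length in the results was not tested. Results that rest on TGF-β 2 h replicate 1 are given with and without that library.

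In the controls the members spanned a wide range of FPKM levels. TOP2A, the topoisomerase that untangles sister chromatids, stood at 121 ± 12.01 FPKM (mean ± SD, n = 4), CCNB1 (cyclin B1) at 99.3 ± 7.002 and TPX2, the spindle protein that activates AURKA, at 94.1 ± 2.36. The libraries of neighbours in this order overlapped: TOP2A was at 103 to 129, CCNB1 at 93.99 to 109 and TPX2 at 91.3 to 96.7 FPKM. The lowest levels were those of CDC25C, a phosphatase that activates CDK1, at 4.10 ± 0.298 FPKM, of CDCA3 at 5.21 ± 0.299 and of CENPE, a kinesin of the kinetochore, at 7.33 ± 0.944. The 44 genes together took 0.652 to 0.722% of the counts of a control library.

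After 2 h of eATP, 20 of the 44 genes fell and 0 rose. Over all 20094 genes tested, 3.79% were called lower and 4.79% higher, a call being a Benjamini-Hochberg adjusted p under 0.05 in edgeR's quasi-likelihood test (edgeR), two-sided. The median log2(FC) of the members was -0.34, against -0.01 over all genes tested, and 43 of the 44 estimates were negative. In 33 of the 44 genes all 4 treated libraries lay below all 4 controls, which was so for 9.21% of all genes. No member was called higher by DESeq2 or limma either, and 1 was higher at an unadjusted p under 0.05 in edgeR. The share of counts taken by the members was 0.532 to 0.570%, below every control library. In RNA from a whole culture, fewer cells in G2 or mitosis and less of each RNA per cell cannot be told apart.

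The falls after eATP were spread over the roles. The 2 members that encode partners of AURKB in the passenger complex, BIRC5 (survivin) and CDCA8 (borealin), both fell. CDCA8 stood at 21.3, 22.5, 22.00 and 21.2 FPKM in the controls and at 14.6, 13.7, 13.8 and 13.9 after eATP, and the groups did not overlap. Its log2(FC) was -0.61 (SE 0.07, edgeR adjusted p = 3.91e-06). BIRC5 stood at 12.8, 19.8, 12.5 and 10.9 FPKM in the controls and at 8.85, 8.73, 8.97 and 8.34 after eATP, with control replicate 2 far above the rest of its group. BIRC5 had the largest fall, -0.66 (SE 0.18, edgeR adjusted p = 0.0238), and it lost its call without control replicate 2 (-0.45, adjusted p = 0.109) and without eATP 2 h replicate 1, 2 or 4 (adjusted p 0.0572 to 0.0655). GTSE1, a microtubule-binding protein of G2, fell from 10.5 ± 0.828 to 6.59 ± 0.259 FPKM, -0.65 (SE 0.10, edgeR adjusted p = 0.000263), with its libraries at 10.8, 10.1, 9.54 and 11.4 against 6.84, 6.75, 6.47 and 6.28 and no overlap.

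Of the 7 genes for cyclins, CDK1 and its regulators, 3 fell after 2 h of eATP. CCNB1 stood at 94.8, 99.05, 109 and 93.99 FPKM in the controls and at 76.6, 75.5, 79.8 and 80.4 after eATP, all lower, with a log2(FC) of -0.32 (SE 0.07, edgeR adjusted p = 0.00649). CDK1 stood at 40.6, 38.8, 40.8 and 37.1 against 31.8, 30.3, 33.2 and 34.5 FPKM, again with no overlap. Its fall was the smallest among the 20 called genes, -0.25 (SE 0.06, edgeR adjusted p = 0.0133), and was no longer called without control replicate 1, control replicate 3 or eATP 2 h replicate 2 (adjusted p 0.0501 to 0.0575). CCNA2, cyclin A2 of S phase and G2, had the lowest log2(FC) of the 7, -0.60 (SE 0.07, edgeR adjusted p = 9.95e-06). The 4 others, CCNB2, CDC25B, CDC25C and FOXM1, were not called.

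Of the 7 mitotic kinase genes 4 fell after 2 h of eATP: PLK1, NEK2 and the checkpoint kinases BUB1 and BUB1B. BUB1B lost its call without any 1 of 6 libraries of the pair (adjusted p 0.0502 to 0.0739), and NEK2 without eATP 2 h replicate 2 (0.0519). PLK1, the polo-like kinase of mitotic entry, stood at 21.2, 20.9, 23.4 and 22.4 FPKM in the controls and 17.05, 17.01, 16.3 and 16.8 after eATP, log2(FC) -0.37 (SE 0.06, edgeR adjusted p = 0.000612). AURKA, the kinase of spindle poles, stood at 66.8, 68.5, 74.4 and 74.1 against 28.9, 54.6, 53.8 and 54.1 FPKM. All 4 treated libraries were below the controls, with replicate 1 far below the other 3, and the difference did not pass the test, -0.54 (SE 0.27, edgeR adjusted p = 0.277). CDC20, the activator of the anaphase-promoting complex, fell from 59.4, 56.7, 59.95 and 54.5 to 41.01, 42.6, 43.2 and 41.5 FPKM, -0.43 (SE 0.09, edgeR adjusted p = 0.00323), and MAD2L1, its inhibitor in the spindle checkpoint, fell with a log2(FC) of -0.53 (SE 0.07, edgeR adjusted p = 8.4e-05). By edgeR none of the 3 genes of chromosome structure and periphery was called: TOP2A was at 126, 124, 103 and 129 against 79.2, 86.97, 85.1 and 80.8 FPKM, all lower, -0.52 (SE 0.17, edgeR adjusted p = 0.0685), and MKI67, the gene for the proliferation marker Ki-67, at 25.8, 20.5, 16.2 and 20.5 against 18.1, 20.5, 12.7 and 12.03 with overlap, -0.36 (SE 0.21, edgeR adjusted p = 0.392). TOP2A was called lower by the DESeq2 test, in the fit of the compared groups alone and without TGF-β 2 h replicate 1, which is in neither group but enters the shared estimate of spread (-0.52, adjusted p = 0.000278).

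The remaining falls after 2 h of eATP were in 3 of 6 centromere and kinetochore genes (CENPA, CENPE and NDC80), 2 of 6 kinesins (KIF11 and KIF2C), 3 of 6 spindle genes (TPX2, DLGAP5 and GTSE1) and CDCA3. Of these CENPE lost its call in 8 of the 28 alternatives (adjusted p up to 0.0975), CENPA in 4 (up to 0.0625) and CDCA3 in 10 (up to 0.104), the block by replicate number among them (0.0546). TPX2 had one of the narrowest spreads, with 95.2, 93.2, 91.3 and 96.7 FPKM in the controls and 66.3, 66.8, 65.5 and 66.6 after eATP. KIF2C, a kinesin that takes microtubules apart, was at 20.2, 18.4, 20.96 and 20.97 against 13.9, 14.1, 14.9 and 14.4 FPKM, log2(FC) -0.47 (SE 0.06, edgeR adjusted p = 6.61e-05). The count of 20 was 13 without eATP 2 h replicate 2 and 28 without TGF-β 2 h replicate 1. Shares of all genes called were not computed for these fits, so both counts stand without a background.

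**Figure D1:**
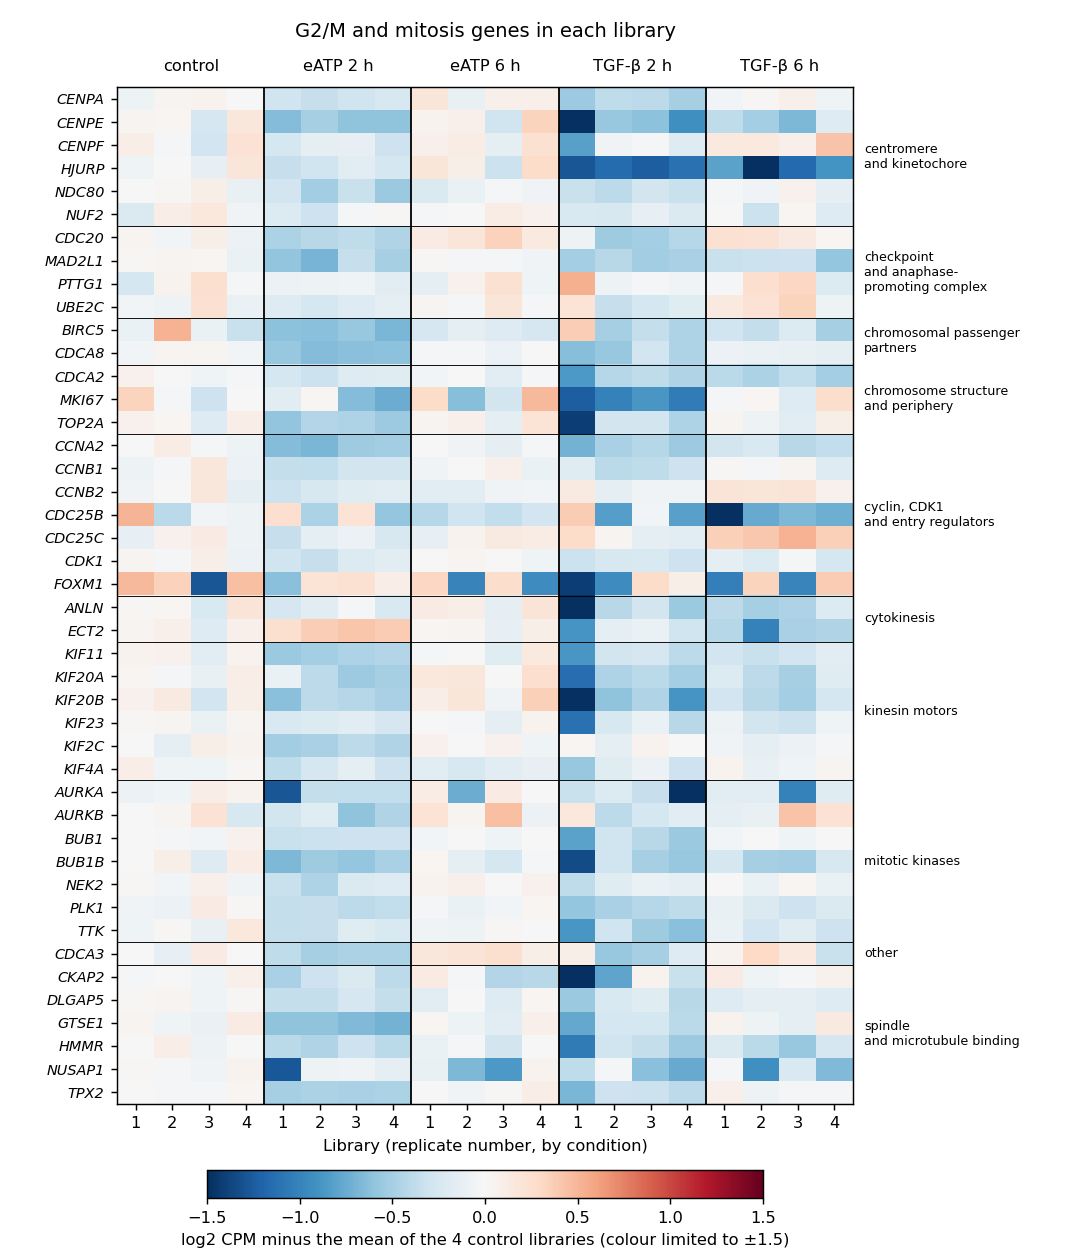
Log2 CPM of each of the 44 genes in each of the 20 libraries, as the difference from the mean of the 4 control libraries (blue lower, red higher, colour limited to 1.5), with genes grouped by role. Most rows are blue in the 4 libraries of eATP 2 h and of TGF-β 2 h, whose member medians lay at -0.37 to -0.31 and -0.61 to -0.28, and pale at eATP 6 h (-0.06 to 0.02).

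After 6 h of eATP the members were near their control levels. By edgeR 0 of the 44 rose and 0 fell, while 1.71% of all genes were called higher and 1.28% lower. At an unadjusted p under 0.05, 1 was higher and 0 were lower, and DESeq2 and limma called 0 in both directions. The median log2(FC) of the members was -0.02 and that of all genes -0.01. CCNB1 stood at 95.1, 98.6, 101 and 90.9 FPKM, CDK1 at 38.8, 40.01, 38.2 and 37.2 and PLK1 at 21.5, 20.3, 20.7 and 22.1, each overlapping its controls. TOP2A was at 123, 125, 105 and 136 FPKM, MKI67 at 24.6, 13.03, 16.3 and 28.4 and CDC20 at 62.4, 65.01, 71.1 and 62.6, with all 4 libraries of CDC20 above all 4 controls. AURKA was at 75.8, 41.98, 74.6 and 69.4 FPKM, with replicate 2 far below the rest. The members took 0.634 to 0.723% of the counts.

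From 2 to 6 h of eATP, 22 of the 44 genes rose and 0 fell, beside 6.01% of all genes called higher and 6.57% called lower. The median log2(FC) of the members was 0.33, and in 29 genes all 4 libraries at 6 h lay above all 4 at 2 h, against 11.2% of all genes. At an unadjusted p under 0.05 in edgeR 1 gene was lower, and DESeq2 and limma called 0 lower. Among the called genes the largest rises were those of CENPE, KIF20B and CDC20. CENPE stood at 4.62, 5.06, 4.66 and 4.71 FPKM at 2 h and 7.50, 7.59, 5.74 and 9.05 at 6 h, log2(FC) 0.65 (SE 0.17, edgeR adjusted p = 0.0158), without overlap, and was not called without eATP 6 h replicate 4 (0.54, adjusted p = 0.0627). KIF20B, a kinesin of cytokinesis, went from 7.96, 9.26, 9.04 and 8.71 to 13.2, 13.98, 11.5 and 15.7 FPKM, 0.63 (SE 0.19, edgeR adjusted p = 0.0306), a call lost when any of 7 libraries of the pair was left out (adjusted p 0.0526 to 0.0938). CDC20 rose by 0.63 (SE 0.09, edgeR adjusted p = 7.27e-05) from the levels given above, and its call was kept under all 28 alternatives. CCNB1 rose by 0.30, SE 0.07, and CDK1 by 0.25, SE 0.06, on the log2 scale (edgeR adjusted p = 0.00842 and 0.0123). CDK1 lost its call without eATP 2 h replicate 2 (adjusted p = 0.0502). PLK1, CCNA2, CDCA8, GTSE1, TPX2 and KIF2C were also among the 22. This comparison and that of eATP 2 h with the controls share the eATP 2 h libraries.

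After 2 h of TGF-β, 26 of the 44 genes fell and 0 rose, beside 5.67% of all genes called lower and 7.25% called higher. The median log2(FC) of the members was -0.42, against 0.02 over all genes, and 42 of 44 estimates were negative. In 28 genes all 4 treated libraries were below all 4 controls, against 7.95% of all genes. No member was higher at an unadjusted p under 0.05 in edgeR, nor called higher by DESeq2 or limma. Without replicate 1 of this group 27 genes fell, beside 5.58% of all genes, with a median of -0.38. KIF4A alone of the 26 was then no longer called (-0.19, adjusted p = 0.0828), a call lost in 8 of the 28 alternatives, while BIRC5 and CDCA3 were called (log2(FC) -0.47 and -0.41). The members took 0.424% of the counts in replicate 1 and 0.496 to 0.566% in the other 3.

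The 3 largest falls after 2 h of TGF-β were those of HJURP, MKI67 and CENPE, with the kinesin gene KIF20B next (-0.85). As a role, the centromere and kinetochore genes had a median of -0.39, beside -0.42 for all 44 members. HJURP, the chaperone that places the centromere histone CENPA, stood at 38.5, 40.6, 36.1 and 45.6 FPKM in the controls and 15.6, 18.04, 16.9 and 18.2 after TGF-β. The groups were far apart and replicate 1 was close to the other 3, log2(FC) -1.20 (SE 0.25, edgeR adjusted p = 0.00246). Without replicate 1 the value was -1.17. MKI67 was at 8.21, 10.1, 11.2 and 9.69 FPKM after TGF-β, all below the controls, -1.06 (SE 0.22, edgeR adjusted p = 0.00245), and -0.99 without replicate 1. CENPE was at 7.55, 7.51, 6.004 and 8.24 FPKM in the controls and 2.41, 4.92, 4.73 and 3.79 after TGF-β, with replicate 1 the lowest, -0.87 (SE 0.17, edgeR adjusted p = 0.00174), and -0.70 without it. Of the other centromere genes CENPA and NDC80 fell, and CENPF and NUF2 were not called. CDCA2, which brings a protein phosphatase to chromosomes, fell with a log2(FC) of -0.52 (SE 0.08, edgeR adjusted p = 0.000296).

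TOP2A showed how far replicate 1 lay from its group: it stood at 42.8, 99.3, 98.9 and 85.9 FPKM, with replicate 1 the lowest value. Its log2(FC) was -0.54 (SE 0.17, edgeR adjusted p = 0.0388) with all libraries and -0.34 (adjusted p = 0.015) without replicate 1, and it lost its call without control replicate 1, 2 or 4 or TGF-β 2 h replicate 4 (adjusted p 0.0642 to 0.0958). The cyclin and CDK1 genes varied less among the 4 libraries. CCNB1 was at 82.6, 75.1, 75.6 and 78.9 FPKM, log2(FC) -0.32 (SE 0.07, edgeR adjusted p = 0.00528), and CDK1 at 29.6, 33.2, 33.4 and 31.2 FPKM, -0.28 (SE 0.06, edgeR adjusted p = 0.00494), both without overlap with the controls. PLK1 stood at 13.9, 15.7, 16.3 and 16.6 FPKM, all below the controls, -0.47 (SE 0.06, edgeR adjusted p = 3.53e-05). CDC20 was at 51.7, 39.8, 40.4 and 42.2 FPKM, where replicate 1 lay nearest to the controls, -0.38 (SE 0.09, edgeR adjusted p = 0.00714). Without replicate 1 the log2(FC) of these 4 genes was -0.37 for CCNB1, -0.26 for CDK1, -0.43 for PLK1 and -0.49 for CDC20, all still called. AURKA was at 53.4, 61.7, 55.4 and 24.8 FPKM, with replicate 4 far below the rest, and was not called, -0.51 (SE 0.27, edgeR adjusted p = 0.25).

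Among the other roles after 2 h of TGF-β, 4 of 7 kinase genes fell (PLK1, BUB1, BUB1B and TTK), 4 of 6 kinesins (KIF4A, KIF11, KIF20A and KIF20B), 4 of 6 spindle genes (TPX2, HMMR, DLGAP5 and GTSE1) and 1 of 2 cytokinesis genes (ANLN, the scaffold anillin). ANLN had a log2(FC) of -0.63, and of -0.41 without replicate 1, and lost its call without control replicate 1, 2 or 4 or TGF-β 2 h replicate 4 (adjusted p 0.051 to 0.0829) and in the compared groups alone (0.191). CCNA2, MAD2L1 and CDCA8 complete the 26. KIF20B fell from 9.94 to 13.7 FPKM in the controls to 3.52 to 9.06, -0.85 (SE 0.19, edgeR adjusted p = 0.00432), and its log2(FC) was -0.64 without replicate 1. In the fit of the compared groups alone, where the spread came from these 2 groups only, 12 of the 44 genes were called lower. Such a fit gave more calls in other comparisons, with 28 lower in place of 20 at 2 h of eATP and 13 in place of 7 at 6 h of TGF-β. Many of the 26 calls thus rest on the spread shared with the other groups. Shares of all genes called were not computed for these fits.

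**Figure D2:**
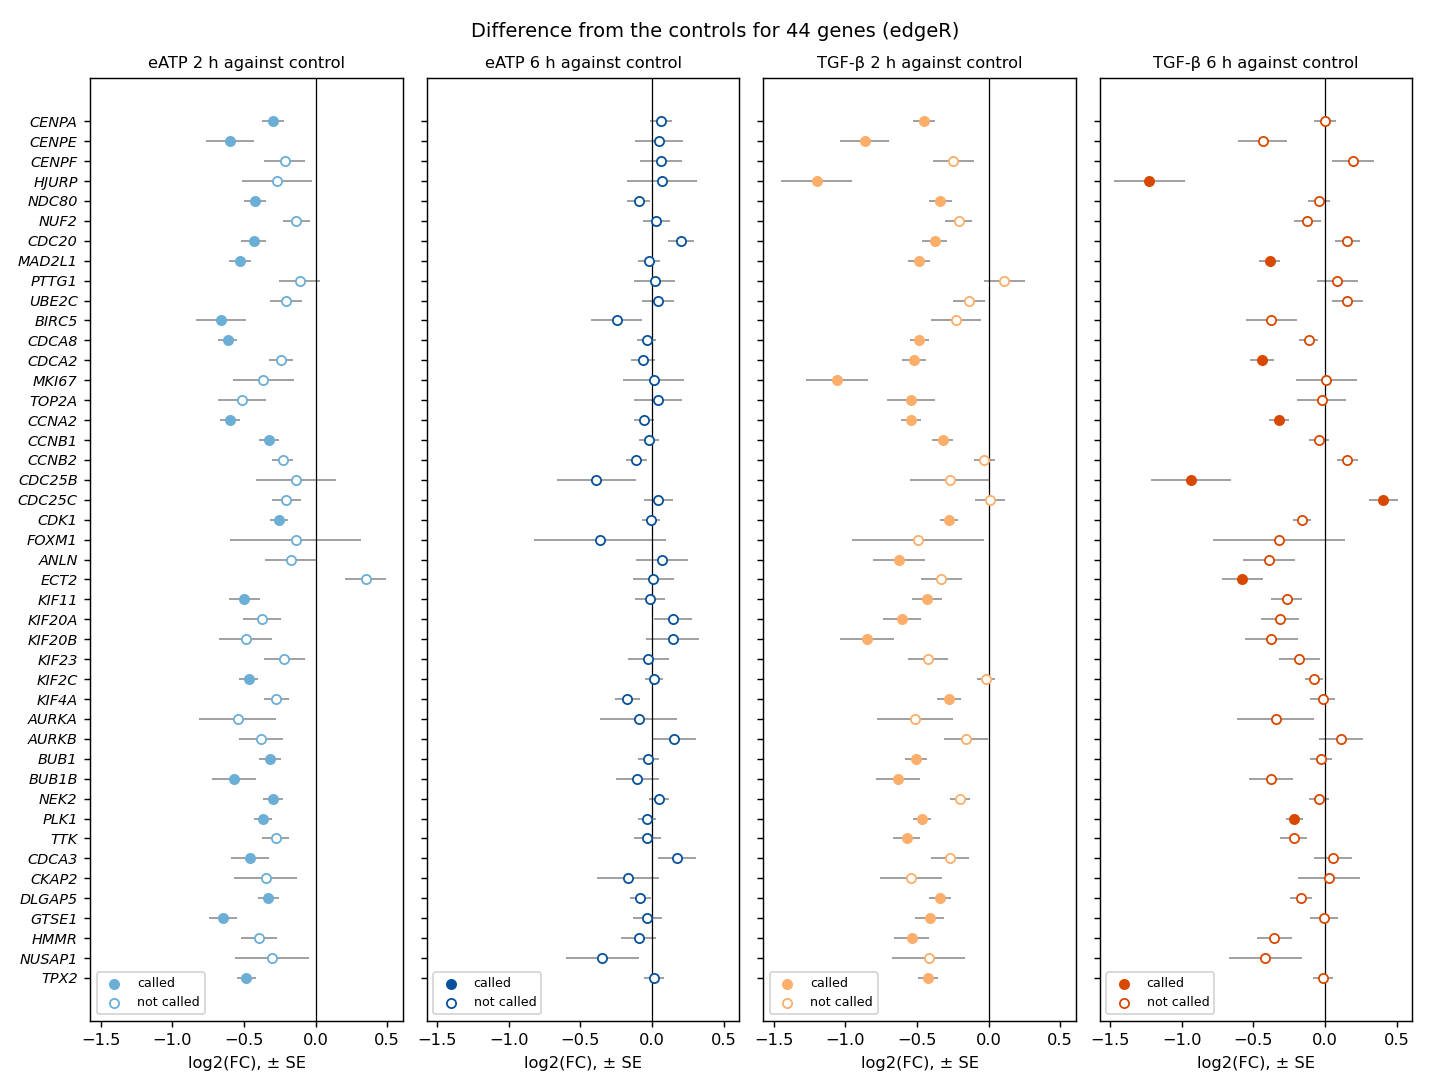
Log2(FC) against the controls (horizontal axis, bars ± SE) of each of the 44 genes in 4 comparisons that share the control libraries, with filled points for genes called by edgeR. Filled points lie left of 0 for 20 genes at eATP 2 h and 26 at TGF-β 2 h, there are none at eATP 6 h, and at TGF-β 6 h there are 7 left and 1 right of 0.

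**Figure D3:**
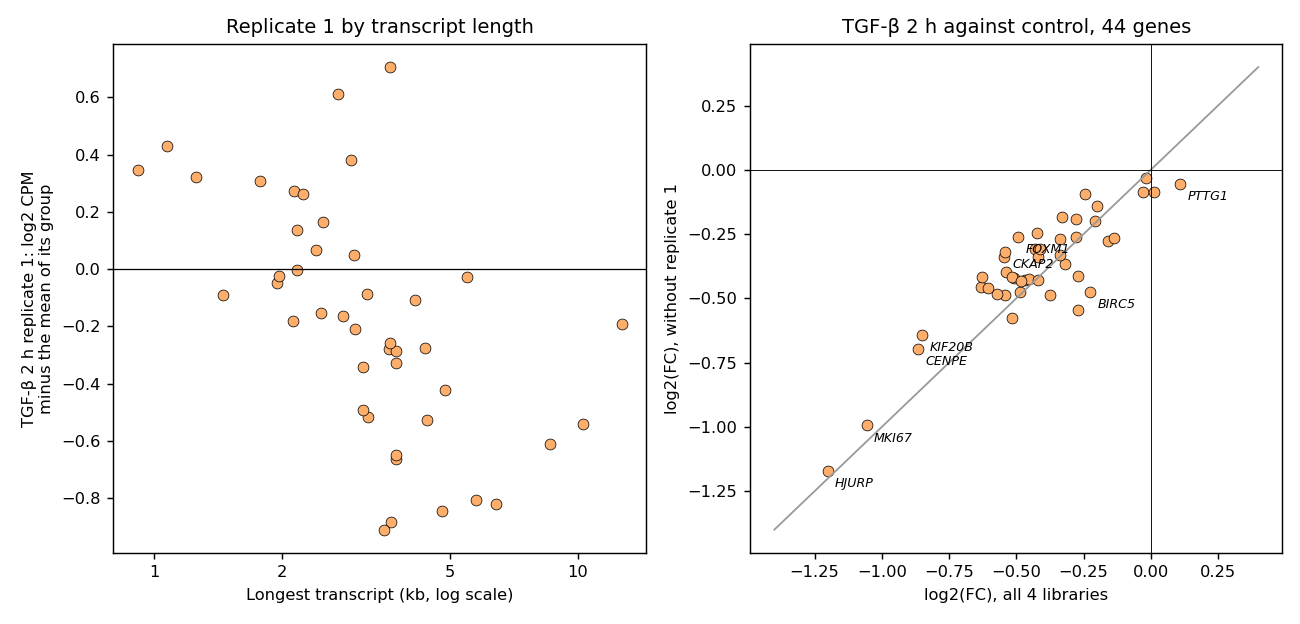
Left, the deviation of TGF-β 2 h replicate 1 from its group (log2 CPM) against the longest transcript of each of the 44 genes (kb, log scale). Right, log2(FC) of TGF-β 2 h against control with all 4 libraries and without replicate 1, with the line of equality. The median moved from -0.42 to -0.38 and HJURP, MKI67, CENPE and KIF20B stayed the lowest.

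After 6 h of TGF-β, 7 of the 44 genes were lower than in the controls and 1 was higher, beside 7.76% of all genes called lower and 8.4% called higher. The members had a median log2(FC) of -0.14, and in 14 of them all 4 libraries lay below all 4 controls (11.2% of all genes). HJURP was still low, at 21.6, 6.12, 16.8 and 20.7 FPKM, with replicate 2 the lowest, -1.23 (SE 0.25, edgeR adjusted p = 0.00145). CDC25B, a phosphatase that activates CDK1, was at 63.5, 33.7, 42.2 and 42.2 FPKM in the controls and 13.6, 24.6, 26.1 and 25.7 after TGF-β, all lower, -0.94 (SE 0.28, edgeR adjusted p = 0.0267). Its call was lost without control replicate 1 (-0.74, adjusted p = 0.104) and without TGF-β 6 h replicate 1 (-0.76, adjusted p = 0.0872), the highest and the lowest of these 8 libraries. ECT2, the exchange factor that activates RhoA for cytokinesis, was at 58.8, 60.8, 48.7 and 60.5 FPKM in the controls and 39.9, 26.6, 38.5 and 40.1 after TGF-β, all lower, -0.58 (SE 0.14, edgeR adjusted p = 0.00809).

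CDCA2 (-0.44, SE 0.08), MAD2L1 (-0.39, SE 0.07) and CCNA2 (-0.32, SE 0.07) were also lower on the log2 scale after 6 h of TGF-β (edgeR adjusted p = 0.000948, 0.000953 and 0.00277). PLK1 was at 19.2, 17.7, 16.7 and 18.2 FPKM, below all 4 controls, -0.21 (SE 0.06, edgeR adjusted p = 0.0225), a call lost without control replicate 3 or 4 or TGF-β 6 h replicate 2 (adjusted p 0.0531 to 0.0813). CDC25C was the 1 gene that rose, from 3.79, 4.32, 4.39 and 3.91 to 4.95, 5.12, 5.53 and 5.05 FPKM without overlap, 0.41 (SE 0.10, edgeR adjusted p = 0.00957). CCNB1 was at 94.4, 91.99, 95.8 and 83.4 FPKM, CDK1 at 33.3, 32.02, 36.3 and 31.6 and TOP2A at 117, 108, 102 and 123, and none of these was called. MKI67 at 18.8, 19.6, 16.9 and 23.7 FPKM and CDC20 at 63.5, 62.96, 59.9 and 56.9 were within or near the range of the controls. AURKA was at 59.3, 59.5, 33.1 and 60.1 FPKM, all below the controls with replicate 3 the lowest, and was not called. The count of 7 was 18 without TGF-β 2 h replicate 1, which changes only the shared estimate of spread here, and 13 in the fit of the compared groups alone. A changed spread bears on all genes, and their share called was not computed for these fits. The larger counts are therefore not a result about the members.

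From 2 to 6 h of TGF-β, 13 of the 44 genes rose and 0 fell, beside 5.49% of all genes called higher and 6.58% called lower. Over the 44 genes the median log2(FC) was 0.25, and 14 genes had all 4 libraries at 6 h above all 4 at 2 h (7.2% of all genes). At an unadjusted p under 0.05 in edgeR 1 gene was lower, and DESeq2 and limma called 0 lower. Among the called genes MKI67 had the largest rise, from 8.21, 10.1, 11.2 and 9.69 to 18.8, 19.6, 16.9 and 23.7 FPKM, 1.07 (SE 0.22, edgeR adjusted p = 0.0026). It was followed by CDC20, 0.53 (SE 0.09, edgeR adjusted p = 0.000459), and BUB1, a kinase of the spindle checkpoint, which went from 8.26, 12.4, 11.3 and 10.1 to 13.9, 14.2, 13.7 and 14.6 FPKM, 0.48 (SE 0.08, edgeR adjusted p = 0.000321). Without TGF-β 2 h replicate 1, these 3 rises were 0.99, 0.63 and 0.38, and 15 genes rose, beside 6.35% of all genes. ECT2 was then called lower at 6 h than at 2 h (log2(FC) -0.41, adjusted p = 0.02, beside 8.95% of all genes called lower). The count of 13 was 8 without TGF-β 6 h replicate 3 and 2 in the fit of the compared groups alone, without a share of all genes computed for either fit.

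**Figure D4:**
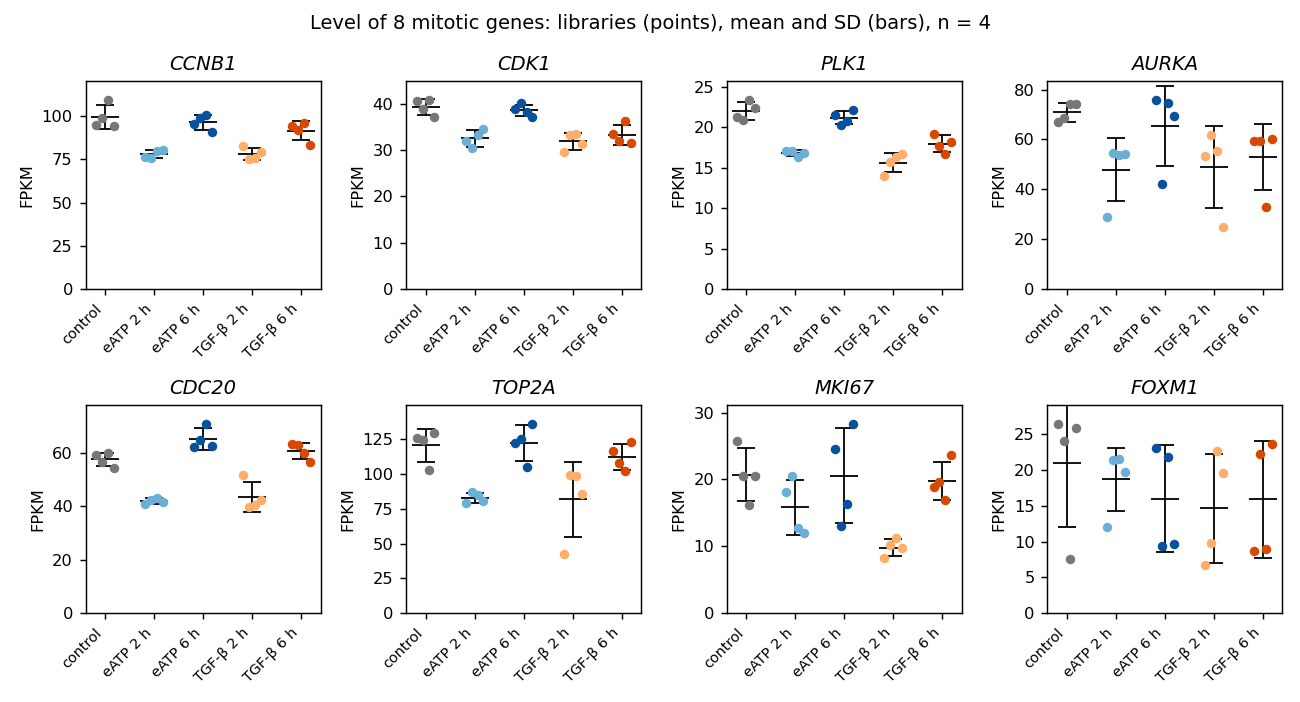
FPKM (vertical axis from 0) of 8 genes in the 5 conditions, with each library as a point and the mean and SD of 4 libraries as bars. CCNB1, CDK1 and PLK1 lie below the controls at 2 h of both inducers, as does CDC20 with TGF-β 2 h replicate 1 at 51.7 above its group, whereas AURKA and FOXM1 have libraries far below the rest of their groups, with FOXM1 split into 2 low and 2 high libraries in 3 of the 5 conditions.

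The inducers were compared directly at the same time. At 2 h, TGF-β was lower than eATP for 3 of the 44 genes and higher for 1, beside 4.16% of all genes called lower and 4.93% called higher, so the shares of the members were near the background. HJURP was lower after TGF-β, with 31.3, 32.1, 34.9 and 32.7 FPKM after eATP, -0.93 (SE 0.25, edgeR adjusted p = 0.0199), although it lost its call without eATP 2 h replicate 3 (-0.89, adjusted p = 0.0529). Without TGF-β 2 h replicate 1 it was -0.90 (adjusted p = 0.0497). ECT2 was at 66.6, 72.6, 74.5 and 73.2 FPKM after eATP, above all 4 controls, and at 29.2, 51.3, 52.9 and 45.6 after TGF-β, a log2(FC) between inducers of -0.68 (SE 0.14, edgeR adjusted p = 0.00352) and of -0.54 without TGF-β 2 h replicate 1. CDCA2 had a log2(FC) of -0.28 (SE 0.08, edgeR adjusted p = 0.048), a call lost in most alternatives (adjusted p 0.0174 to 0.287 over all 28). KIF2C was the 1 gene higher after TGF-β, at 19.5, 18.1, 20.8 and 19.8 FPKM against the eATP values given above, 0.45 (SE 0.06, edgeR adjusted p = 7.53e-05) and 0.43 without TGF-β 2 h replicate 1, and its 4 TGF-β libraries lay close to the controls. Without TGF-β 2 h replicate 1, GTSE1 was also called higher after TGF-β (0.34, edgeR adjusted p = 0.0101). In that fit 5.28% of all genes were called higher and 3.89% lower. For the rest of the members a p above the threshold does not show that the inducers acted alike.

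At 6 h, TGF-β was lower than eATP for 6 genes and higher for 2, beside 8.66% of all genes called lower and 8.97% called higher. HJURP stood at 45.2, 42.2, 30.9 and 47.8 FPKM after eATP, and its log2(FC) between inducers was -1.30 (SE 0.25, edgeR adjusted p = 0.000847). ECT2 stood at 57.95, 58.1, 50.6 and 59.7 FPKM after eATP, -0.59 (SE 0.14, edgeR adjusted p = 0.00687). KIF20A, a kinesin of the central spindle, was at 22.3, 22.5, 19.3 and 23.6 against 16.4, 14.4, 13.4 and 17.1 FPKM, -0.46 (SE 0.13, edgeR adjusted p = 0.0231), and lost its call without eATP 6 h replicate 2 or 4 or TGF-β 6 h replicate 2 or 3 (adjusted p 0.052 to 0.0669). CDCA2, MAD2L1 and CCNA2 were the other 3 lower genes. CDC25C, at 3.72, 4.22, 4.36 and 4.38 FPKM after eATP, was higher after TGF-β by 0.36 (SE 0.10, edgeR adjusted p = 0.0196). CCNB2, cyclin B2, was higher too, at 39.5, 39.3, 39.5 and 37.2 against 32.8, 32.3, 34.1 and 35.2 FPKM, 0.27 (SE 0.07, edgeR adjusted p = 0.0155). Both rises lost their calls without TGF-β 6 h replicate 3 (adjusted p = 0.098 and 0.0734), CDC25C also without eATP 6 h replicate 1 (0.0735) and CCNB2 without eATP 6 h replicate 2 (0.054). Leaving out TGF-β 2 h replicate 1 moved the count of 6 to 14, and leaving out eATP 6 h replicate 3 moved it to 10. The share of all genes called was not computed for either fit.

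The change from 2 to 6 h differed between the inducers for 2 of the 44 genes, both with a lower value under TGF-β, beside 3.02% of all genes called lower and 3.1% called higher. KIF2C had an interaction of -0.54 (SE 0.09, edgeR adjusted p = 0.000804) on the log2 scale and MAD2L1 of -0.41 (SE 0.10, edgeR adjusted p = 0.024). KIF2C fell and came back under eATP while its TGF-β libraries were at 19.5, 18.1, 20.8 and 19.8 FPKM at 2 h and 18.3, 17.1, 17.9 and 19.1 at 6 h. MAD2L1 was at 9.99, 9.25, 11.7 and 10.6 FPKM at 2 h and at 15.4, 14.7, 14.6 and 14.5 at 6 h of eATP. Under TGF-β it was at 10.1, 11.4, 10.6 and 10.7 FPKM at 2 h and 11.3, 11.4, 11.6 and 9.85 at 6 h, below all 4 controls (15.5, 15.8, 15.2 and 14.4) at both times. MAD2L1 lost this call without eATP 2 h replicate 1 or 2 or eATP 6 h replicate 1 (adjusted p 0.0516 to 0.0564). Without TGF-β 2 h replicate 1, 5 genes were called, all lower and beside 5.02% of all genes: these 2 (-0.55 for KIF2C and -0.44 for MAD2L1) with KIF11, CCNA2 and CDCA8. No member was called higher by edgeR, DESeq2 or limma, with 1 at an unadjusted p under 0.05 in edgeR.

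Several members did not follow the rest, and some of them had single libraries that stood apart. FOXM1, the transcription factor of G2/M genes, was at 26.5, 24.04, 7.55 and 25.96 FPKM in the controls, with replicate 3 far below the others. It stood at 12.1, 21.4, 21.6 and 19.7 FPKM after 2 h and at 23.1, 9.34, 21.8 and 9.65 after 6 h of eATP. After TGF-β it stood at 6.69, 9.77, 22.6 and 19.6 FPKM at 2 h and at 8.68, 22.3, 8.94 and 23.7 at 6 h. Each condition thus held libraries above 19 FPKM and at least 1 library far lower, at 6.69 to 12.1 FPKM. FOXM1 was not called in any comparison with the controls, with a log2(FC) of -0.14 (SE 0.46, edgeR adjusted p = 0.937) at 2 h of eATP and of -0.49 (SE 0.46, edgeR adjusted p = 0.577) at 2 h of TGF-β. RHNO1, a gene that neighbours FOXM1, was at 6.09 to 20.98 FPKM over the 20 libraries, at 18.8 in control replicate 3, where FOXM1 was low, and at 20.98 in control replicate 2, where it was not. NUSAP1, a spindle protein, was at 43.05, 41.9, 39.8 and 43.99 FPKM in the controls and 17.3, 39.4, 39.7 and 37.8 after 2 h of eATP. In eATP 2 h replicate 1, where NUSAP1 was low, an overlapping gene (ENSG00000285920) held 2895 counts, and it held 0 in the other 19 libraries. Yet NUSAP1 was also low in some libraries where that gene held 0. It was at 27.3 and 24.6 FPKM in TGF-β 2 h replicates 3 and 4 and at 26.2 and 22.5 in eATP 6 h replicates 2 and 3. In TGF-β 6 h replicates 2 and 4 it was at 21.1 and 25.7 FPKM. The division of reads between overlapping genes is uncertain in eATP 2 h replicate 1 at least. The part of that division in the values of FOXM1 and NUSAP1 was not tested.

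PTTG1 (securin, which holds separase in check) was at 44.6, 55.5, 61.6 and 52.2 FPKM in the controls and 49.4, 49.7, 49.5 and 46.7 after 2 h of eATP. It was at 47.8, 55.02, 60.2 and 50.3 FPKM after 6 h of eATP, at 72.5, 50.5, 52.5 and 50.6 after 2 h of TGF-β and at 48.96, 59.6, 62.4 and 44.4 after 6 h of TGF-β. Every condition overlapped the controls, and TGF-β 2 h replicate 1 was the highest of the 20 libraries. UBE2C, the ubiquitin-conjugating enzyme of the anaphase-promoting complex, and AURKB were not called against the controls in any condition either. AURKB still moved as most members did. All 7 mitotic kinase genes had negative estimates at 2 h, the highest being -0.28 for eATP and -0.16 for TGF-β. From 2 to 6 h of eATP AURKB rose by 0.53 (edgeR adjusted p = 0.0269), a call lost in 4 of the 28 alternatives (adjusted p up to 0.097). Over the 20 libraries the log2 CPM of each member was compared with the mean of the other 43. The libraries share their conditions, so these correlations are a description. CCNA2 (r = 0.93), CENPE (0.92), PLK1 (0.92) and KIF11 (0.92) were most like the rest, and PTTG1 (-0.27), CDC25B (-0.08), CCNB2 (0.08), CDC25C (0.09) and FOXM1 (0.17) least. The median r over the 946 pairs of members was 0.47, and 0.51 without TGF-β 2 h replicate 1. The SD within conditions was 0.74 log2 units for FOXM1, 0.43 for AURKA and 0.42 for CDC25B, against 0.07 for PLK1 and CDK1.

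The falls were also counted by whether the promoter window held the CHR letters. Only 9 matched genes lacked them and the search was for exact letters, so the counts are a description. The part of the CHR in the falls was not tested. At 2 h of eATP 13 of 28 genes with the letters and 5 of 9 without them fell, and at 2 h of TGF-β 19 of 28 and 4 of 9. The median log2(FC) was -0.33 and -0.38 for eATP, and -0.42 and -0.32 for TGF-β. KIF2C, called lower after eATP and not after TGF-β, had neither the CHR letters nor CCAAT in its window, and HJURP had the CHR letters at -111.

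Other cell cycle genes were counted in the same fit. Over all genes 3.79% were called lower and 4.79% higher at 2 h of eATP, and 5.67% and 7.25% at 2 h of TGF-β. At 6 h the shares were 1.28% and 1.71% for eATP and 7.76% and 8.4% for TGF-β. These shares stand beside the counts of every list below. In a list of 15 genes 1 call is 6.67% of the list, so small counts there are a description only. Of 66 other G2/M genes, 16 fell and 0 rose at 2 h of eATP (median log2(FC) -0.29) and 27 fell and 0 rose at 2 h of TGF-β (-0.39). No gene of this list was higher at an unadjusted p under 0.05 in edgeR in either of these, nor by DESeq2 or limma. After eATP the log2(FC) of PSRC1, a spindle protein, was -1.16 (SE 0.16, edgeR adjusted p = 5.6e-05), that of LMNB1 (lamin B1) -0.84 (SE 0.09, edgeR adjusted p = 4.47e-06) and that of CCNF (cyclin F) -0.66 (SE 0.07, edgeR adjusted p = 4.48e-06). After TGF-β the log2(FC) of KIF18A, a kinesin that dampens microtubule growth, was -0.89 (SE 0.11, edgeR adjusted p = 1.07e-05), that of ARHGAP11A -0.87 (SE 0.27, edgeR adjusted p = 0.0361) and that of ESPL1 (separase) -0.80 (SE 0.13, edgeR adjusted p = 0.000352). At 6 h 1 of the 66 was lower after eATP (SKA2, -0.24 (SE 0.06, edgeR adjusted p = 0.0226)) and 12 were lower after TGF-β, led by PSRC1 (-0.54), PBK (-0.52) and BORA (-0.47).

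The G1/S and replication genes also held many falls at 2 h, and they held more at 6 h of TGF-β. At 2 h of eATP 18 of the 40 fell (median -0.29), and at 2 h of TGF-β 15 fell and 1 rose (-0.24). E2F2, a transcription factor of G1/S genes, had a log2(FC) of -0.96 (SE 0.11, edgeR adjusted p = 9.46e-06) after eATP, and CCNE2 (cyclin E2) one of -1.26 (SE 0.23, edgeR adjusted p = 0.000866) after TGF-β. At 6 h of TGF-β 24 fell (median -0.41), beside the 7 of 44 members and the 7.76% of all genes, with E2F2 at -1.84 (SE 0.12, edgeR adjusted p = 1.29e-09), E2F8 at -1.15 (SE 0.18, edgeR adjusted p = 0.00011) and ORC1 at -1.08 (SE 0.09, edgeR adjusted p = 7e-08). From 2 to 6 h of TGF-β 10 fell, beside 6.58% of all genes, while 13 of the members rose, beside 5.49% of all genes. In these comparisons no gene of the 40 was higher by edgeR, DESeq2 or limma, or at an unadjusted p under 0.05, other than the 1 at 2 h of TGF-β. At 6 h of eATP 1 of the 40 rose and none was lower by any of these tests. E2F2 (-1.27), E2F1 (-0.64) and CDC6 (-0.59), the loader of the replicative helicase, had the largest falls among the 10. The time course differed between the inducers for 23 of the 40, all lower under TGF-β (median -0.55), and for 2 of the 44 members (median -0.10), beside 3.02% of all genes.

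Genes that hold back CDK1 and mitotic entry moved in both directions. Of 15, 2 fell and 2 rose at 2 h of eATP, with BTG2 at -0.58, CDKN1B (p27) at -0.52 (SE 0.07, edgeR adjusted p = 5.99e-05) and PLK2 at 0.44 (SE 0.06, edgeR adjusted p = 7.27e-05). At 2 h of TGF-β 3 fell and 3 rose, among them CDKN1A (p21, an inhibitor of cyclin-dependent kinases) with 1.32 (SE 0.08, edgeR adjusted p = 1.49e-09), GADD45B, a stress gene, with 1.26 (SE 0.21, edgeR adjusted p = 0.000352) and PLK2, a polo-like kinase outside mitosis, with -1.23 (SE 0.06, edgeR adjusted p = 1.2e-10). At 6 h of TGF-β 4 rose and 2 fell, with GADD45B at 1.77, CDKN1A at 1.26 and PLK2 at -1.03, and at 6 h of eATP 1 rose (SFN, 0.67) and 1 fell (CDKN1B, -0.39). CDKN1A was higher after TGF-β than after eATP at 2 h by 1.30 (SE 0.08, edgeR adjusted p = 1.64e-09) and at 6 h by 1.29 (SE 0.08, edgeR adjusted p = 1.35e-09).

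Of 15 genes of the MuvB core, MYBL2, the pocket proteins and NF-Y, 3 fell at 2 h of eATP (LIN9 at -0.63, LIN52 at -0.53 and MYBL2 at -0.29) and 2 at 2 h of TGF-β (LIN52 at -0.66 and E2F5 at -0.64). At 6 h of TGF-β LIN37 (0.83) and E2F4 (0.31) rose and RBL1 (p107, -0.67), LIN52 (-0.61) and LIN9 (-0.48) fell, and at 6 h of eATP 0 were called by edgeR, DESeq2 or limma, or at an unadjusted p under 0.05. Of 15 subunits of the anaphase-promoting complex with its partner UBE2S, 2 fell at 2 h of eATP (ANAPC4 at -0.28 and ANAPC5 at -0.20), 2 at 2 h of TGF-β (ANAPC7 at -0.33 and CDC23 at -0.29) and 0 at 6 h of either inducer by edgeR. At an unadjusted p under 0.05 in edgeR, 1 subunit was higher and 0 were lower at 6 h of eATP, where DESeq2 and limma called 0, and 1 was higher and 2 were lower at 6 h of TGF-β, where DESeq2 called 1 lower and limma 2.

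**Figure D5:**
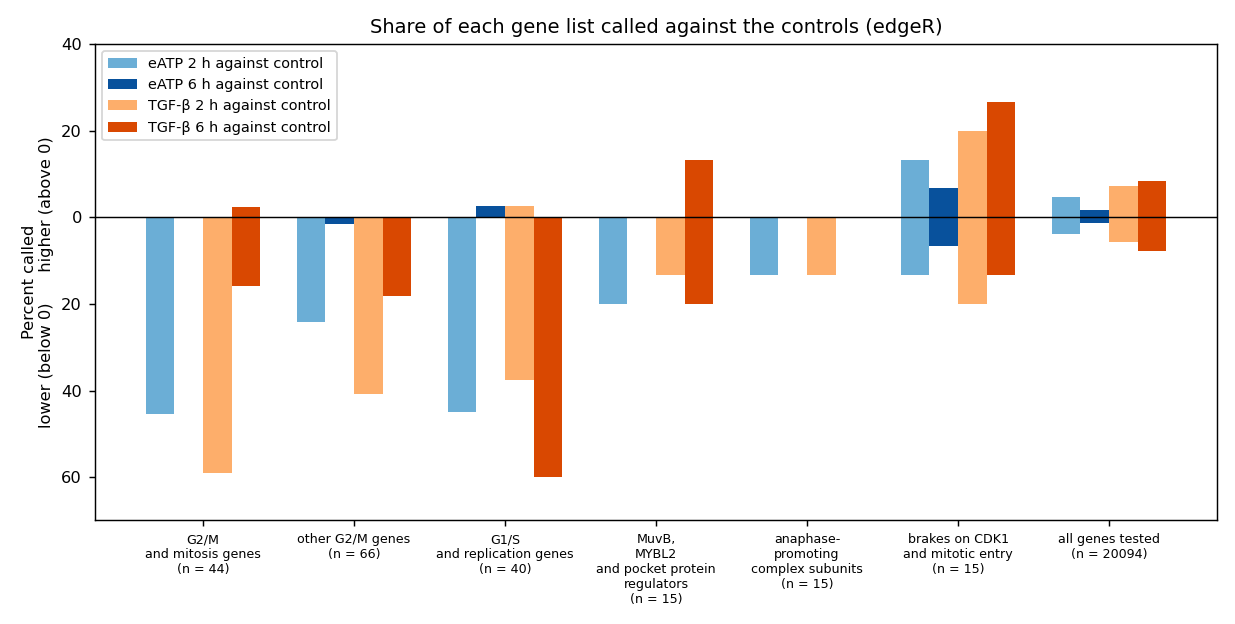
Percent of each gene list called by edgeR against the controls, higher above 0 and lower below 0, for the 44 G2/M and mitosis genes, 5 other lists and all 20094 genes tested, in 4 comparisons that share the control libraries. The bars of the members reach 45.5% and 59.1% lower at 2 h of eATP and TGF-β, and 15.9% lower at 6 h of TGF-β, where the G1/S genes reach 60%.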

How the data were processed

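Poly(A) RNA of 20 A549 libraries was sequenced with a stranded kit. The authors deposited 1 table with raw counts and FPKM of 58825 genes in each library. HISAT2, StringTie and edgeR stand in the submitters' processing notes, without version or role. The genome build and annotation were not given in the sources used here. Genes with 0 counts carry a small constant FPKM in the table the authors deposited, and 25387 genes had 0 counts in every library.

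The 20094 genes that reached 0.1 FPKM in 4 or more libraries were tested on the deposited counts with edgeR 4.0.16 (R 4.3.3), with TMM normalization and a quasi-likelihood fit of 1 model with the 5 conditions, 15 residual degrees of freedom and Benjamini-Hochberg adjustment over all 20094 genes. A call was an adjusted p under 0.05, two-sided. SE was the absolute log2(FC) divided by the square root of F. Log2 CPM used a prior count of 1. The test was tested on simulated counts, drawn independently for each library, with no outlying library and no trend with transcript length. That simulation does not show how the test behaves where such libraries are present. Alternatives were DESeq2 1.42.0 (size factors, or its test), limma 3.58.1 on log2(FPKM + 0.1) or log2(FPKM + 1), no filter, a filter of 1 FPKM, the compared groups alone, a block by replicate number and leaving out each library. No 2 libraries of a condition were alike within counting noise (smallest chi-square per gene 61.2 over 30 pairs). Transcript lengths were from GENCODE 29 and promoters from RefSeq (GRCh38.p14).

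The members and the other gene lists were chosen with earlier results of these data known. All members could be named, and the values of each library were given for CCNB1, CDK1, PLK1, AURKA, CDC20, TOP2A, MKI67 and FOXM1 and for the 3 largest rises and falls of a comparison. From the other lists up to 3 called genes with the largest changes were named.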

Additional observations from a re-analysis of the deposited data

Results flagged for a closer look

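Among the 220 sets of 4 libraries formed by the 44 genes in the 5 conditions, 14 (6.36%) held a library whose gap to its nearest neighbour, as a share of the range of the set, was above Dixon's critical value. Chance gives about 1 in 20 sets, or 11. Control replicate 3 held 4 of the 14. In it FOXM1 was at 7.55 FPKM (24.0 to 26.5 in the other 3), KIF11 at 33.5 (39.9 to 40.3), ECT2 at 48.7 (58.8 to 60.8) and UBE2C at 78.4 (64.4 to 66.8). In eATP 2 h replicate 1, AURKA was at 28.9 FPKM (53.8 to 54.6 in the others) and NUSAP1 at 17.3 (37.8 to 39.7). AURKA was low again in TGF-β 6 h replicate 3, at 33.1 FPKM (59.3 to 60.1), while CSTF1, a gene that neighbours it, was at 7.64 to 12.9 FPKM over all 20 libraries. In TGF-β 2 h replicate 1, the library that stood apart, BIRC5 was at 16.8 FPKM (9.70 to 10.6) and PTTG1 at 72.5 (50.5 to 52.5), both above the others. In the remaining sets the library differed less in level, with CCNB2 at 37.2 FPKM (39.3 to 39.5) and MAD2L1 at 9.85 (11.3 to 11.6) in TGF-β 6 h replicate 4 and PTTG1 at 46.7 (49.4 to 49.7) in eATP 2 h replicate 4. CDC25B at 13.6 FPKM (24.6 to 26.1) in TGF-β 6 h replicate 1 and ECT2 at 26.6 (38.5 to 40.1) in TGF-β 6 h replicate 2 were farther from their groups.

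The change from 2 to 6 h differed between the inducers, by the test of that difference across all genes, for KIF2C (-0.54, edgeR adjusted p = 0.000804) and MAD2L1 (-0.41, edgeR adjusted p = 0.024), both on the log2 scale and both lower under TGF-β.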

How the results depend on the processing

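Each result was recomputed under 28 alternatives, of which 20 left out 1 library. Shares of all genes called were computed only without TGF-β 2 h replicate 1, in comparisons that hold TGF-β 2 h. The other counts under alternatives stand without that background. Of 103 calls of a member in a comparison, 56 held under all 28, and of the 2884 recomputed values 2693 kept their direction and call, 191 kept their direction without the call and 0 changed sign. FOXM1 at 2 h of eATP, which was not called, ranged from -0.41 to 0.024 with 1 library left out and was above 0 without eATP 2 h replicate 1. In the fit of the compared groups alone, the members called were 1 higher after eATP 2 h (0 with all groups), 12 lower after TGF-β 2 h (26), 13 lower after TGF-β 6 h (7), 1 lower from 2 to 6 h of eATP (0) and 2 higher from 2 to 6 h of TGF-β (13). The DESeq2 test called 5 lower in TGF-β against eATP at 2 h (3 by edgeR) and 10 at 6 h (6), and limma on log2(FPKM + 1) and the filter of 1 FPKM also gave 10 at 6 h. Without a filter, 0 were higher in TGF-β against eATP at 6 h (2 with it). With 1 library left out, counts ranged from 0 to 1 higher and 13 to 28 lower for eATP 2 h, 23 to 28 lower for TGF-β 2 h, 6 to 18 lower for TGF-β 6 h, 17 to 28 higher and 0 to 1 lower from 2 to 6 h of eATP, and 8 to 17 higher and 0 to 1 lower from 2 to 6 h of TGF-β. For TGF-β against eATP they ranged from 1 to 2 higher and 2 to 5 lower at 2 h and from 0 to 2 higher and 5 to 14 lower at 6 h, and for the interaction from 1 to 5 lower. Same-numbered libraries were at most weakly correlated: 6 of 40 correlations were over 0.1 (median -0.007, range -0.239 to 0.154). Replicates 3 and 4 of control, eATP 6 h and TGF-β 6 h had correlations of 0.094 to 0.154 with one another. Those of the controls with the 2 h groups ran from -0.239 to 0.138. The part of this structure in the differences from the controls was not tested beyond a block by replicate number. A replicate block moved no count by over 1.5 times, with 19 lower at 2 h of eATP, 25 at 2 h of TGF-β and 7 at 6 h of TGF-β, 22 and 12 higher from 2 to 6 h of eATP and TGF-β, and 2 lower in the interaction. The libraries held 56187614 to 75050437 counts, and each condition rests on 4 libraries, which limits the precision of every comparison.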
